A study of Mus musculus with 4 samples.

Results

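*Fabp3*, *Fabp4*, *Fabp5*, *Cd36*, *Lpl*, *Pparg*, *Apoe*, *Plin2* and *Scd1* encode proteins that bind, take up, store or sense fatty acids, and they were followed through the mesenchymal, endothelial and myeloid cells of mouse fracture callus. They are 9 of the 32285 genes counted in each library. The set was selected on measured values of these libraries: it was built around the lower level of *Fabp5* in callus from inflamed mice at 7 days post fracture (dpf), so that difference is given here as a description, and the question was which cells carry it. The study compared the callus of tibial fractures between mice with systemic inflammation, called RA mice, and controls. All animals were male 3-month-old C57BL/6J wild-type mice, and all had the same fracture of the right tibia. RA mice received K/BxN serum, which transfers an antibody-driven arthritis, from the day of fracture onward, and control mice received vehicle (PBS). Callus was scraped from the periosteal surface at 4 or 7 dpf, digested with collagenase and pooled over the animals of a group, and 10000 cells of each pool were loaded for 1 single-cell 3' library. There was therefore 1 library in each of the groups control 4 dpf, RA 4 dpf, control 7 dpf and RA 7 dpf, no difference between groups has a replicate check, and no test between groups was possible. The serum transfer models antibody-driven inflammation without the lymphocyte response that starts the disease in the donor strain.

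Fatty acids are poorly soluble in water. Outside the cell they travel in lipoproteins, which carry proteins such as *Apoe*, and lipoprotein lipase (*Lpl*) at the vessel wall frees them from triglycerides. The scavenger receptor *Cd36* helps them across the plasma membrane, and the small cytosolic fatty acid binding proteins carry them inside the cell: *Fabp3* is the heart and muscle form, *Fabp4* the adipocyte form, which is also found in capillary endothelium and macrophages, and *Fabp5* the epidermal form, which is found in many cell types including macrophages and endothelium. *Plin2* coats the lipid droplets in which fatty acids are stored as esters, *Scd1* desaturates them, and *Pparg* is a nuclear receptor that binds fatty acids and activates many of the other genes. In bone the skeletal progenitors, the vessels and the macrophages all use fatty acids, and *Pparg* drives progenitors towards the adipocyte lineage.

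*Fabp5* lies on chromosome 3 of the GRCm38 build at chr3:10012548-10016607 on the plus strand, and *Fabp4* at chr3:10204088-10208576 on the minus strand, in a cluster of 5 genes of the family that spans 288.6 kb and also holds *Pmp2*, *Fabp9* and *Fabp12*. *Fabp3* lies apart from it at chr4:130308595-130315463 on the plus strand. The first 150 coding bases of the binding protein genes in the set are shown because transcripts with related coding sequences had different cell patterns and different ratios here. They were read from the GRCm38 genome with the GENCODE M21 annotation, 5' to 3' on the coding strand, and capitals mark the bases that all of them share in an alignment of the whole coding sequences.
Fabp3: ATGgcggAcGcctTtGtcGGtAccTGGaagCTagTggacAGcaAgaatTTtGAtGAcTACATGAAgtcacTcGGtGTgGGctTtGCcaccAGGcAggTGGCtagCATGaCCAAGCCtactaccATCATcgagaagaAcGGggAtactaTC
Fabp4: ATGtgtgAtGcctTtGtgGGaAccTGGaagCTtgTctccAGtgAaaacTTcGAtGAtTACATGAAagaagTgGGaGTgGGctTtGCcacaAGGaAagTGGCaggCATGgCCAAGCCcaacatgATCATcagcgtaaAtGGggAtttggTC
Fabp5: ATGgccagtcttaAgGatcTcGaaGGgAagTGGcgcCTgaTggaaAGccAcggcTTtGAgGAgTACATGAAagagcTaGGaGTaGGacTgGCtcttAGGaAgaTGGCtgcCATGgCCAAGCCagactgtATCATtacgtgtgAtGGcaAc
The coding sequences, of 402 bases in *Fabp3* (133 codons and a stop), 399 in *Fabp4* (132 codons) and 408 in *Fabp5* (135 codons), each fall on 4 exons, and lie between chr4:130308778-130315225, chr3:10204520-10208511 and chr3:10012640-10016120. Over the aligned bases *Fabp4* was identical to *Fabp3* at 63.9% and to *Fabp5* at 60.9%, and *Fabp3* to *Fabp5* at 56%. Annotated copies elsewhere in the genome are closer: of the 938 stretches of 50 bases in the *Fabp5* transcript, 198 (21.1%) also occur in the transcript of another annotated gene, over 5 copies, and of the 774 stretches in *Fabp3*, 226 (29.2%) occur in 1 copy, while none of the 847 stretches of *Fabp4* does. None of these copies is among the genes counted in the libraries, and how far reads shared with a copy lower the counts was not tested. Of the other genes, *Cd36* lies at chr5:17781690-17888801 (minus strand), *Lpl* at chr8:68880491-68907448 (plus), *Pparg* at chr6:115360951-115490399 (plus), *Apoe* at chr7:19696109-19699188 (minus), *Plin2* at chr4:86648386-86670060 (minus) and *Scd1* at chr19:44394455-44407879 (minus).

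After the cell filter that the study's methods give, 25479 of 34038 barcodes were kept, between 4110 and 8223 per library, with medians of 16093.5 to 17631.5 unique molecular identifiers (UMIs) per cell, and each pair of libraries shared 5 to 15 kept barcodes. Clustering without the 9 genes and without other lipid genes gave 20 clusters, which were named from marker lists of lineages and of cell types within them. The mesenchymal clusters (9098 cells) carried *Prrx1* at 574 UMIs per 1000000 UMIs of the cells (CPM) against 5.91 in endothelial and 4.17 in myeloid cells, the endothelial clusters (3370 cells) carried *Cdh5*, and the myeloid clusters (9835 cells) carried *Cd68* at 455 CPM against 10.6 in mesenchymal and 21.1 in endothelial cells. These markers are among those that named the clusters, so their levels describe the naming. Of their classes, 4 met no rule for a cell type name and are called by leading genes: the *Adgrl4* *Cdh5* endothelial cluster and the *Retnla* *H2-Eb1*, *Mmp9* *Elane* and *Ifitm1* *Ccr7* myeloid clusters. Of all cells, 592 (2.32%) were called doublets and were left in. The RA library at 4 dpf stood apart in red cell genes, whose summed level reached at most 35.4 CPM in a lineage there, against 402 to 956 CPM in the other libraries, and the part of this in the 4 dpf comparisons was not tested. Summed adipocyte markers were at 0.359 to 4.36 CPM in every lineage and library, the highest in RA mesenchymal cells at 4 dpf, where *Lep* and *Pck1* were at 0.

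The genes differed in the lineage that held their UMIs, and a share of UMIs also moves with the cell mix of a library. Over the 4 libraries together, myeloid cells held 67.4% of the *Fabp5* UMIs, mesenchymal cells 14.6% and endothelial cells 14.0%. *Fabp4* was an endothelial transcript, with 90.2% of its UMIs there. *Cd36* was divided between myeloid (70.9%) and endothelial cells (24.0%), and *Lpl* between myeloid (52.9%) and mesenchymal cells (42.2%). The leading lineage of *Lpl* turned between libraries, from 15313 myeloid and 3616 mesenchymal UMIs in control 4 dpf to 10581 and 24971 in RA 7 dpf. *Apoe* (90.2%), *Plin2* (80.2%) and *Pparg* (67.6%) were mainly myeloid. *Scd1* was mainly mesenchymal (81.4%). *Fabp3*, with 2642 UMIs in all, was at 59.9% in mesenchymal and 31.0% in myeloid cells, but myeloid cells led at 4 dpf (511 of 675 UMIs in control and 97 of 194 in RA) and mesenchymal cells at 7 dpf (594 of 795 and 797 of 978).

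*Fabp5* was lower in RA than in control callus at 7 dpf, and the difference lay in mesenchymal and myeloid cells while endothelial cells kept most of their level. Over all cells of a library *Fabp5* was at 880 CPM in control and 513 CPM in RA at 4 dpf, and at 599 CPM in control and 204 CPM in RA at 7 dpf, which is 2.94-fold lower in RA at 7 dpf. In mesenchymal cells it was at 199 CPM in control 4 dpf, 195 in RA 4 dpf, 258 in control 7 dpf and 54.7 in RA 7 dpf. The RA library at 7 dpf lay far below the others. The log2 ratio of RA to control at 7 dpf, with 1 CPM added to both sides, was -2.22, which is a 4.72-fold lower level, and the ratio was 0.212 with a 95% exact interval of 0.206 to 0.218. Here and below, intervals cover counting error only, not the spread between animals or libraries. In myeloid cells *Fabp5* was at 1414 CPM in control 4 dpf, 761 in RA 4 dpf, 1543 in control 7 dpf and 725 in RA 7 dpf. Both RA libraries lay below both control libraries there, with ratios of 0.538 (0.531 to 0.545) at 4 dpf and 0.470 (0.461 to 0.479) at 7 dpf. The 7 dpf log2 ratio of -1.09 was just past 2-fold and was -0.98 with a looser cell filter. In endothelial cells it was at 695 CPM in control 4 dpf, 697 in RA 4 dpf, 570 in control 7 dpf and 511 in RA 7 dpf. The endothelial libraries differed more by day than by treatment, and the 7 dpf ratio was 0.896 (0.870 to 0.923).

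The lower mesenchymal level at 7 dpf was found in every mesenchymal class. In fibroblast precursor-like cells, named from markers such as *Pi16* and *Dpp4*, *Fabp5* was at 214 CPM in control and 29.9 in RA (7.16-fold lower). Committed mesenchymal progenitor-like cells, named from *Postn*, *Aspn* and other markers, went from 340 to 86.8 CPM (3.92-fold lower), and cycling mesenchymal cells from 643 to 171 CPM (3.75-fold). Fibroblast-like cells were at 101 and 31.2 CPM (3.24-fold) and tenocyte precursor-like cells at 113 and 40.2 CPM (2.80-fold). The RA levels of the precursor-like, fibroblast-like and tenocyte precursor-like cells lay below the 63.3 CPM of lymphoid-like cells in that library, the background reference used below, so no order is read from the size of these folds. Osteochondral progenitor-like cells, named from *Sox9*, *Acan* and other markers, were at 227 and 126 CPM (1.80-fold). Thus 5 of the 6 mesenchymal classes were lower in RA by at least 2-fold. The largest mesenchymal classes were the committed progenitor-like cells in control (1157 of 3233 cells) and the fibroblast-like cells in RA (1521 of 4069), but with the class mix held at its midpoint 85.8% of the mesenchymal difference remained, and 14.2% went with the change of mix.

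Among myeloid classes the picture was uneven. Resident-like macrophages, named from *Mrc1*, *Folr2* and other markers, went from 1633 CPM in control to 463 in RA at 7 dpf (3.52-fold lower), and the *Ifitm1* *Ccr7* cluster from 1204 to 237 CPM (5.09-fold). *Arg1* macrophage-like cells, the highest class of all, were at 2423 and 1536 CPM (1.58-fold), and the *Retnla* *H2-Eb1* cluster at 301 and 165 CPM (1.83-fold). The *Mmp9* *Elane* cluster was at 538 and 548 CPM, a ratio of 1.02 with an interval of 0.921 to 1.13, from 210 cells in control and 39 in RA. Of the 5 myeloid classes 2 were lower by at least 2-fold. In endothelium none of 3 classes was: the *Adgrl4* *Cdh5* cluster was at 620 and 506 CPM, venular endothelial-like cells, named from *Selp* and *Ackr1* among others, at 637 and 654 CPM, and lymphatic endothelial-like cells, a class with little *Fabp5*, at 73.3 and 37.8 CPM. Outside these lineages *Fabp5* was lower by at least 2-fold in muscle-like cells, named from *Pax7* and *Myod1* among others, with 391 CPM in control and 53.8 in RA (7.27-fold), and in mural-like cells (337 and 163 CPM, 2.07-fold), and not in Schwann-like, lymphoid-like or granulocyte-like cells. The RA level of muscle-like cells lay below that of lymphoid-like cells in the same library, so the size of their fold is not read. The difference was thus neither common to all cells of the RA library nor restricted to the skeletal lineage.

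**Figure D1:**
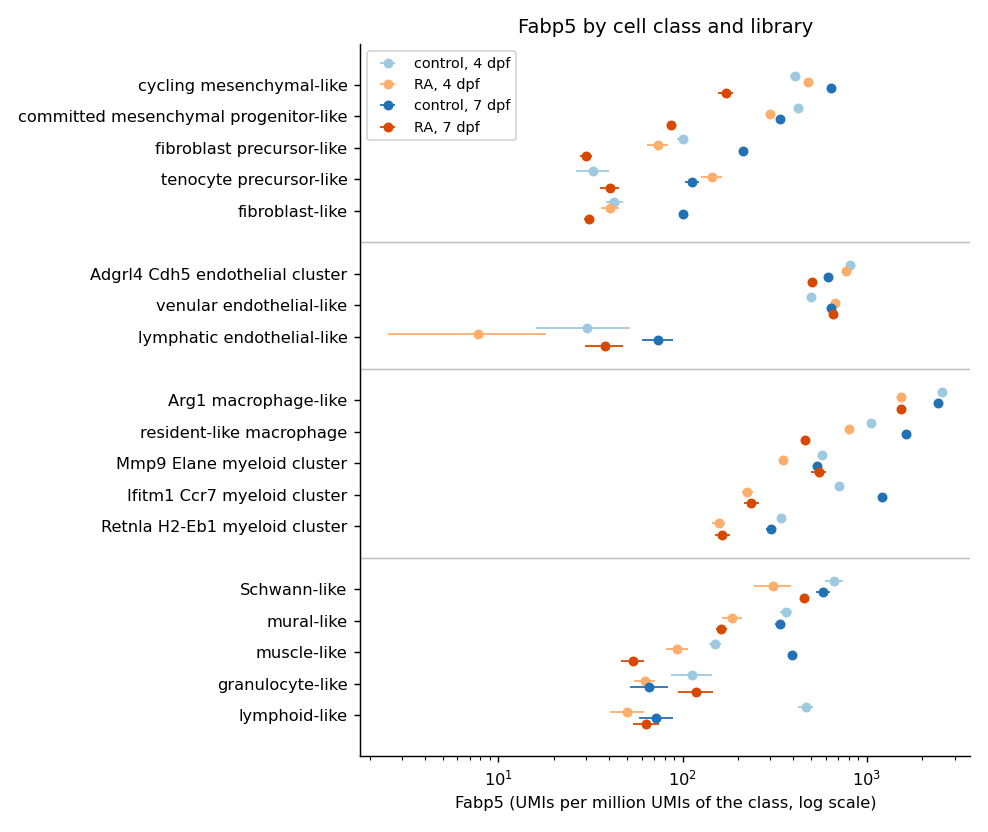
Fabp5 level (UMIs per 1000000 UMIs of the class, log axis) in 18 cell classes, one point per library with 95% exact Poisson intervals that cover counting error only, grouped into mesenchymal, endothelial, myeloid and other cells. In the mesenchymal group the RA points at 7 dpf lie to the left of the control points at 7 dpf in every class, from 29.9 against 214 CPM in fibroblast precursor-like cells to 171 against 643 CPM in cycling cells, while the venular endothelial-like points of the 4 libraries lie between 497 and 673 CPM.

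Ordered by the median over the 4 libraries, the classes ran from *Arg1* macrophage-like cells at 1984 CPM (range 1536 to 2563) through resident-like macrophages at 925 (463 to 1633), the *Adgrl4* *Cdh5* endothelial cluster at 698 (506 to 813), venular endothelial-like cells at 646 (497 to 673) and the *Mmp9* *Elane* cluster at 543 (353 to 569), down to fibroblast-like cells at 41.5 (31.2 to 101) and lymphatic endothelial-like cells at 34.0 (7.75 to 73.3). Each class overlapped the next one in this order, so no step between neighbours exceeded the spread of the libraries.

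Which cells carry the library-wide difference depends on their number as well as on their level. Counted per 1000000 UMIs of the whole library, *Fabp5* from myeloid cells made up 364 CPM of the 599 in control and 89.6 of the 204 in RA at 7 dpf, which is 69.4% of the difference of -395.1 CPM. Mesenchymal cells made up 148 CPM in control and 35.6 in RA, 28.5% of the difference. Endothelial cells made up 58.4 CPM in control and 61.4 in RA, so their part was slightly higher in RA, and muscle-like cells made up 3.26% of the difference. The mesenchymal and myeloid parts were built differently. For mesenchymal cells taken as 1 group, at midpoint weights -124.6 CPM went with the lower level and +12.06 CPM with their larger share of the UMIs in RA (57.3% in control and 65.0% in RA). Class by class the mix also moved, with -5.96 CPM from the smaller share of committed mesenchymal progenitor-like cells, -10.1 CPM from that of cycling mesenchymal cells and +9.18 CPM from the larger share of fibroblast precursor-like cells. The myeloid part was divided between a lower level (-147 CPM) and fewer myeloid UMIs (-127.1 CPM), since myeloid cells held 23.6% of the UMIs in control and 12.4% in RA. By class, *Arg1* macrophage-like cells made up 37.3% of the difference, resident-like macrophages 22.7% and committed mesenchymal progenitor-like cells 14.5%. The *Arg1* part was -53.9 CPM by level and -93.3 CPM by a smaller share of UMIs. The resident-like part was -70.3 CPM by level and -19.2 CPM by share. When cells were instead assigned by the UMIs of their own lineage markers, only 797 control and 1227 RA cells counted as mesenchymal at 7 dpf and the mesenchymal part was 7.79%, with the level lower by more (log2 ratio -2.55).

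**Figure D2:**
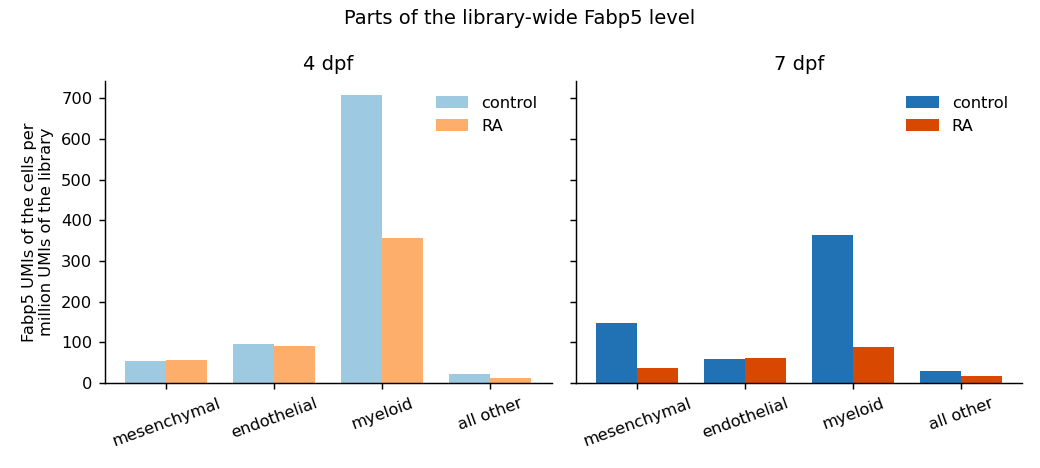
Fabp5 UMIs of mesenchymal, endothelial, myeloid and all other cells per 1000000 UMIs of the whole library (bars from 0), control and RA side by side, at 4 dpf (left) and 7 dpf (right), 1 library per bar. At 7 dpf the myeloid bar goes from 364 in control to 89.6 in RA and the mesenchymal bar from 148 to 35.6, while the endothelial bars are at 58.4 and 61.4.

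A lower level can reflect fewer cells with the transcript or less of it per cell, so each cell was thinned to 4000 UMIs and its *Fabp5* UMIs were counted. The share of mesenchymal cells with at least 1 *Fabp5* UMI was 23.0% in control 4 dpf, 25.4% in RA 4 dpf, 35.7% in control 7 dpf and 11.5% in RA 7 dpf (exact 95% intervals of 34.1 to 37.4% and 10.5 to 12.5% at 7 dpf). The RA share at 7 dpf was thus the lowest of the libraries. Without thinning the 4 shares were 57.1, 57.9, 67.8 and 36.8%, in the same order of libraries. Mesenchymal cells with 3 UMIs or more made up 11.2% in control and 1.52% in RA at 7 dpf, and the mean over cells with a UMI was 2.66 and 1.61. Both the share and the amount per positive cell were thus lower. At this depth both values move with the level, so fewer cells with the transcript and less of it per cell could not be told apart. By class the 7 dpf shares were 47.9% in control and 19.3% in RA in committed mesenchymal progenitor-like cells, 62.9 and 31.3% in cycling mesenchymal cells, 28.9 and 9.12% in fibroblast precursor-like cells and 20.9 and 6.11% in fibroblast-like cells. Each was thus lower in RA. In myeloid cells the share was 62.2% in control and 50.9% in RA at 4 dpf, and 66.7% and 48.5% at 7 dpf. In endothelial cells it was 59.1% in control and 55.4% in RA at 7 dpf. Lymphoid-like cells, taken as the reference for background although some lymphocytes express *Fabp5*, had a share of 15.1, 13.8, 10.6 and 13.1% in control 4 dpf, RA 4 dpf, control 7 dpf and RA 7 dpf, at shallower median depths of 6689 to 9063 UMIs against 24477 to 31378 in mesenchymal cells. The RA shares at 7 dpf in fibroblast-like cells (6.11%), fibroblast precursor-like cells (9.12%), tenocyte precursor-like cells (9.44%) and mesenchymal cells as a whole were at or below this reference. The shares of committed mesenchymal progenitor-like cells (19.3%) and cycling mesenchymal cells (31.3%) lay above it. The reference is no fixed background, since its own *Fabp5* level ran from 50.2 to 467 CPM over the libraries. The estimate of freed myeloid RNA given below was smaller, 12.6 of the 54.7 CPM in RA mesenchymal cells at 7 dpf.

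**Figure D3:**
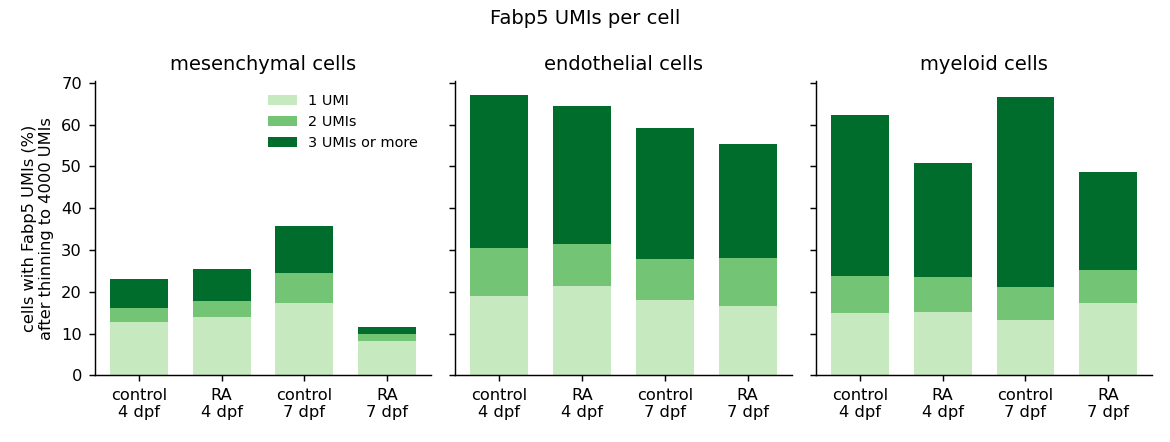
Share of cells with 1, 2 and 3 or more Fabp5 UMIs after each cell was thinned to 4000 UMIs (stacked bars from 0, percent of cells), in mesenchymal, endothelial and myeloid cells of the 4 libraries. In mesenchymal cells the bar of RA at 7 dpf reaches 11.5% against 35.7% in control, and its segment of 3 or more UMIs is 1.52% against 11.2%.

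RNA freed from one cell type can be captured with another. The markers *Lyz2*, *Tyrobp*, *Fcer1g* and *Cd68*, a list chosen after their values were seen, were found in mesenchymal cells at 1.60 to 2.23% of their myeloid level. If *Fabp5* RNA had come along at that rate, it would have given 34.4 CPM of the 258 in control and 12.6 CPM of the 54.7 in RA at 7 dpf, that is 13.3% and 23.1% of the mesenchymal level. *Csf1r* and *Cd14*, other myeloid naming markers, were left out of this list. Relative to their myeloid level they stood higher, at 12.4 and 8.78 CPM in mesenchymal and 464 and 258 CPM in myeloid cells over all libraries. How much *Fabp5* a rate that includes them would give was not tested. The part of freed RNA in the difference between the libraries was not tested. For other genes of the set the amount at the rate of the listed markers was a large part of the level. For *Apoe* it was 58.9 to 89.1% in mesenchymal cells and up to 99.9% in endothelial cells, and for *Cd36* 54.6 to 105% in mesenchymal cells. For *Lpl* it was 50.8 to 77.8% in endothelial cells against 3.45 to 6.36% in mesenchymal cells. For *Pparg* it was 9.09 to 49.0% in mesenchymal cells.

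At 4 dpf *Fabp5* summed over mesenchymal cells was close to equal in RA and control, and the lower level of the library lay mainly in myeloid cells. The mesenchymal difference of -4.05 CPM was made up of -31.5 CPM within classes and 27.5 CPM from the class mix. Of 5 mesenchymal classes 3 were lower in RA, with committed mesenchymal progenitor-like cells lowest (log2 ratio -0.51), and 2 were higher. The mesenchymal ratio of RA to control was 0.980 (0.943 to 1.02), the endothelial ratio 1.00 (0.973 to 1.03). With cells assigned by lineage-marker UMIs these were log2 ratios of 0.71 and -0.64, so the near equality at 4 dpf depends on which cells were counted. That assignment called only 303 control and 164 RA cells mesenchymal at 4 dpf, where the clustering called 990 and 806. It called 302 and 181 cells endothelial, where the clustering called 686 and 496. Among genes at 50 CPM or more, *Fabp5* ranked 1543 from the lowest of 3519 in mesenchymal cells at 4 dpf and 23 of 3524 in myeloid cells, and at 7 dpf, the contrast that chose it, 2 of 3697 and 15 of 3497. The *Arg1* macrophage-like cells were at 2563 CPM in control and 1544 in RA, resident-like macrophages at 1051 and 798, and the *Ifitm1* *Ccr7* cluster at 709 and 225. Myeloid cells therefore made up 95.7% of the library-wide difference of -366.2 CPM at 4 dpf, while the mesenchymal part was 55.2 CPM in control and 55.7 in RA. From 4 to 7 dpf the mesenchymal level went from 199 to 258 CPM in control (ratio 1.30, 1.26 to 1.34) and from 195 to 54.7 CPM in RA (0.281, 0.271 to 0.293). Some small classes stood apart at 4 dpf: tenocyte precursor-like cells had 32.7 CPM in control and 144 in RA at 4 dpf, from 98 and 246 UMIs, although fewer of the RA cells had a UMI (19.8% against 38.3% unthinned), and lymphoid-like cells had 467 CPM in control and 50.2 in RA.

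Genes of the set past a 2-fold difference are given beside the share of all genes that passed it in the same cells. All 9 had at least 50 UMIs over both libraries in mesenchymal and myeloid cells, and 8 in endothelial cells, where *Fabp3* had too few. In mesenchymal cells at 7 dpf *Lpl* was higher in RA, where 1.51% of 17343 genes were higher by 2-fold, and *Fabp5* was lower, where 1.06% were lower. In myeloid cells at 7 dpf *Fabp5* was lower (0.768% of 12885 genes lower) and none higher (1.09% higher), and in endothelial cells none passed either way (0.976% of 13417 genes higher and 0.738% lower). The 7 dpf differences chose the set, so nothing is read from these counts. At 4 dpf *Fabp4* and *Pparg* were higher in mesenchymal cells and none lower (0.821% of 14254 genes higher, 0.877% lower), although the log2 ratio of *Pparg*, 1.09, was below 2-fold under 4 alternatives, and *Cd36* was lower at -2.18 with cells assigned by lineage-marker UMIs. At 4 dpf *Fabp3* was lower in myeloid cells and none higher (0.473% of 13733 genes lower, 0.816% higher), and none passed in endothelial cells (0.628% of 12585 genes higher, 0.516% lower). The median log2 ratio over the genes of the set that passed the count filter was 0.20 in mesenchymal, 0.32 in endothelial and 0.33 in myeloid cells at 7 dpf, where the medians of all genes were -0.03, 0.01 and 0.00, and -0.03, 0.21 and -0.18 at 4 dpf, where they were 0.04, 0.02 and 0.03.

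**Figure D4:**
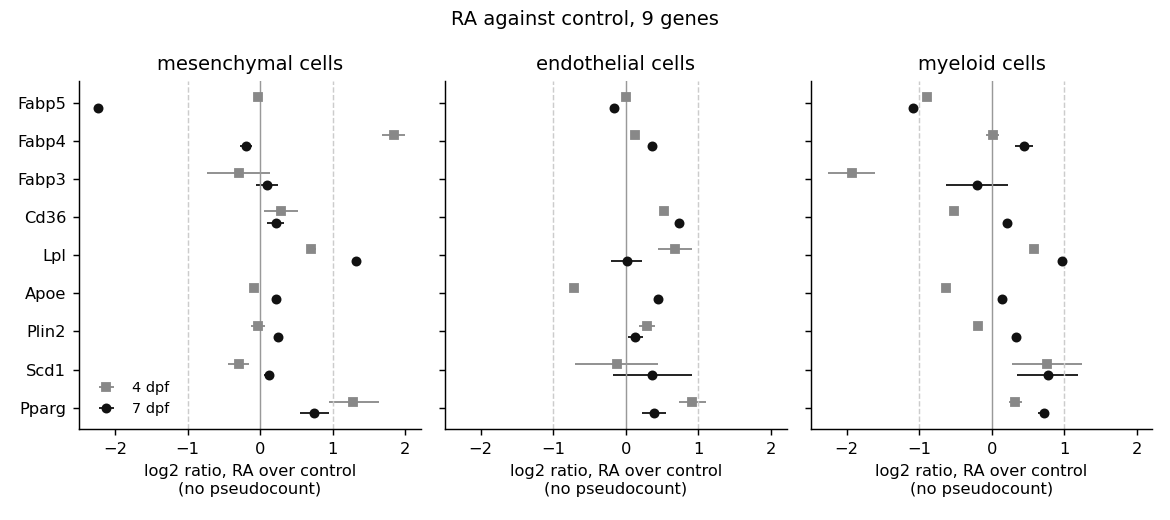
Log2 ratio of RA to control for the 9 genes in mesenchymal, endothelial and myeloid cells (x axis, no pseudocount, so that genes at few CPM lie further from 0 than the ratios in the text), grey squares 4 dpf and black circles 7 dpf, with 95% exact intervals that cover counting error only and dashed lines at 2-fold. Fabp3 in endothelial cells had too few UMIs and is not drawn. Fabp5 in mesenchymal cells lies beyond -2 at 7 dpf and at 0 at 4 dpf, and Lpl lies to the right in mesenchymal and myeloid cells on both days.

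*Fabp4*, which lies in the same gene cluster as *Fabp5*, had another pattern. Its highest classes were venular endothelial-like cells (median over libraries 8425 CPM, range 6585 to 9960) and the *Adgrl4* *Cdh5* cluster (5703, 4757 to 5878), whose ranges did not overlap. In endothelial cells *Fabp4* was at 5718 CPM in control 4 dpf, 6218 in RA 4 dpf, 5236 in control 7 dpf and 6745 in RA 7 dpf. Both RA libraries lay above both controls, by 1.09-fold and 1.29-fold. The 4 dpf log2 ratio of 0.12 was -0.18 with cells assigned by lineage-marker UMIs, and 30.2% of the 7 dpf difference went with the mix of classes. In mesenchymal cells *Fabp4* was at 14.3, 51.1, 29.1 and 25.4 CPM in the same order of libraries, high in RA at 4 dpf (log2 ratio 1.77, but 0.82 when the libraries were clustered without integration). Endothelial markers (*Cdh5*, *Egfl7*, *Tie1*, *Emcn* and *Kdr*) stood in mesenchymal cells at 0.275 to 0.561% of their endothelial level. At that rate *Fabp4* would be carried along at 110, 44.5, 101 and 132% of its mesenchymal level. Only the RA library at 4 dpf, with 22.8 of 51.1 CPM, exceeded it. *Pecam1*, another endothelial naming marker, was left out of this list. It stood higher, at 23.9 CPM in mesenchymal and 1138.5 CPM in endothelial cells over all libraries. Whether the RA library at 4 dpf exceeds a rate that includes *Pecam1* was not tested. In that library 4 of the 5 mesenchymal classes were above control by at least 2-fold, with cycling mesenchymal cells at 12.0 CPM in control and 106 in RA and committed mesenchymal progenitor-like cells at 28.6 and 78.6 CPM. *Fabp3*, the muscle form, was at 9.43 CPM in control and 2.48 in RA myeloid cells at 4 dpf (ratio 0.263, 0.210 to 0.328), and at 4.22 and 3.67 CPM at 7 dpf. At 4 dpf all 5 myeloid classes were lower in RA, 2 of them by at least 2-fold. These were *Arg1* macrophage-like cells, with 16.8 and 5.62 CPM, and resident-like macrophages, with a log2 ratio of -1.56. The *Retnla* *H2-Eb1*, *Mmp9* *Elane* and *Ifitm1* *Ccr7* clusters held only 20, 18 and 6 *Fabp3* UMIs over the 4 libraries, so their direction is not read. In mesenchymal cells *Fabp3* was at 3.85, 3.14, 7.31 and 7.83 CPM in control 4 dpf, RA 4 dpf, control 7 dpf and RA 7 dpf, and its highest class at 7 dpf was the osteochondral progenitor-like one with 18.0 CPM in control and 18.1 in RA.

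*Lpl*, which frees fatty acids from lipoproteins, was higher in mesenchymal and in myeloid cells of RA callus on both days. In mesenchymal cells it was at 120 CPM in control 4 dpf, 196 in RA 4 dpf, 97.7 in control 7 dpf and 245 in RA 7 dpf, with ratios of 1.63 (1.56 to 1.70) and 2.51 (2.45 to 2.58). As an unweighted mean over classes the log2 ratios were 1.07 and 0.82. Both RA libraries lay above both controls. Each of the 6 mesenchymal classes was higher in RA at 7 dpf, 3 of them by at least 2-fold: fibroblast-like cells went from 231 to 525 CPM, committed mesenchymal progenitor-like cells from 41.4 to 91.4 CPM, and osteochondral progenitor-like cells were higher by a log2 ratio of 1.21. At 4 dpf all 5 classes with enough cells were higher, with the fibroblast precursor-like cells at 65.9 and 271 CPM. In myeloid cells *Lpl* was at 283 and 423 CPM at 4 dpf and at 279 and 546 CPM at 7 dpf (1.96-fold, 1.91 to 2.02). *Arg1* macrophage-like cells stood out with 398 CPM in control and 1104 in RA at 7 dpf, while the *Ifitm1* *Ccr7* cluster was at 34.9 and 15.4 CPM. By the median over the libraries *Lpl* was highest in *Arg1* macrophage-like cells at 577 CPM (398 to 1104), then in the *Mmp9* *Elane* cluster at 364 (253 to 474) and in fibroblast-like cells at 307 (231 to 525), with ranges that overlapped. In both lineages *Fabp5* and *Lpl* thus differed in opposite directions at 7 dpf.

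**Figure D5:**
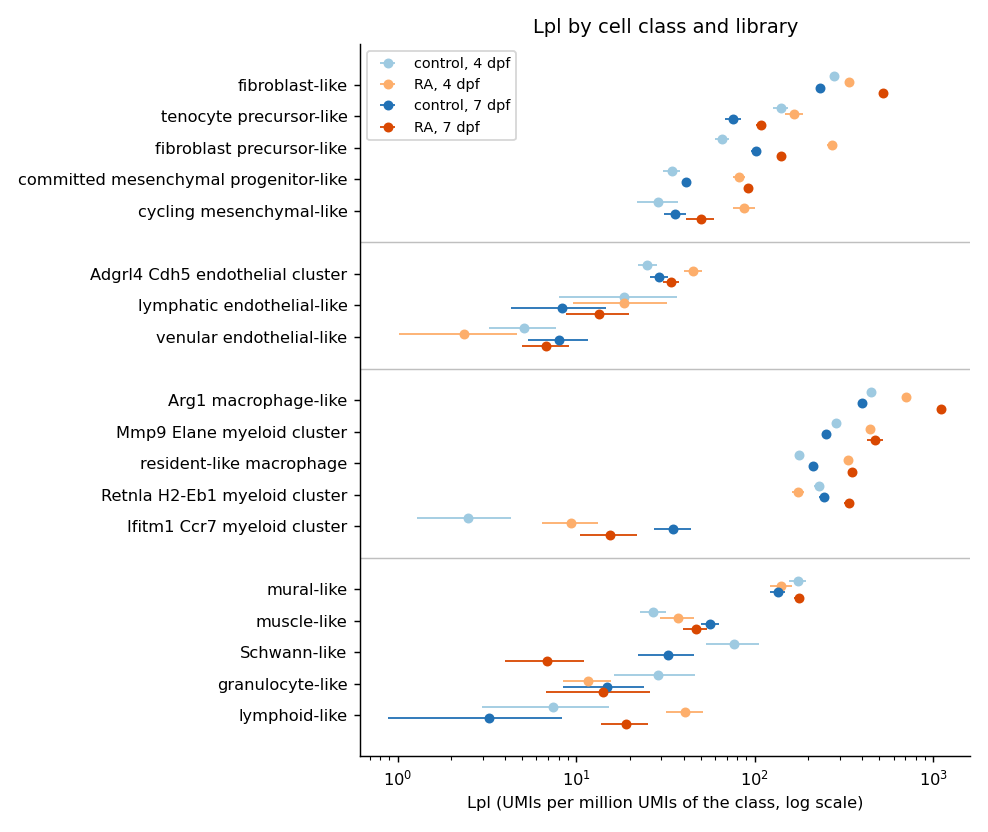
Lpl level (UMIs per 1000000 UMIs of the class, log axis) in the cell classes, one point per library with 95% exact Poisson intervals for counting error only. The RA points at 7 dpf lie to the right of the control points at 7 dpf in every mesenchymal class shown, as in fibroblast-like cells (525 against 231 CPM), and in Arg1 macrophage-like cells (1104 against 398 CPM).

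*Cd36*, the receptor for long-chain fatty acids, was at 396 CPM in control 4 dpf, 572 in RA 4 dpf, 342 in control 7 dpf and 570 in RA 7 dpf in endothelial cells. The 2 RA libraries were nearly equal and lay above both controls, by 1.44-fold and 1.67-fold (1.61 to 1.72). At 7 dpf the *Adgrl4* *Cdh5* cluster went from 330 to 652 CPM and venular endothelial-like cells from 505 to 600 CPM. In myeloid cells *Cd36* was at 620 and 434 CPM in control and RA at 4 dpf and at 564 and 655 CPM at 7 dpf, so the direction differed between the days. Its highest class was the *Arg1* macrophage-like one with a median of 1015 CPM (909 to 1173), above the next class, resident-like macrophages (612, 508 to 709), without overlap.

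*Pparg*, the fatty acid receptor of the nucleus, was low in mesenchymal cells, with 3.55 CPM in control 4 dpf, 8.67 in RA 4 dpf, 3.69 in control 7 dpf and 6.20 in RA 7 dpf. At the rate of the myeloid markers, freed myeloid RNA would make up 18.4, 9.09, 49.0 and 37.6% of these levels in that order. The part of freed RNA in the differences was not tested. Both RA libraries were above both controls, by 2.44-fold (1.92 to 3.11) at 4 dpf and 1.68-fold (1.46 to 1.93) at 7 dpf, from 107 to 631 UMIs per library, and the 4 dpf log2 ratio of 1.09 was 0.46 with a pseudocount of 10 CPM, 0.66 with cells assigned by lineage-marker UMIs, 0.83 with the looser cell filter and 0.99 without cycling clusters. In endothelial cells it was at 27.2, 51.2, 32.5 and 42.6 CPM in the same order, and in myeloid cells at 39.4, 49.3, 81.2 and 133 CPM. Myeloid *Pparg* was also higher at 7 than at 4 dpf, by 2.06-fold in control and 2.71-fold in RA. Its highest classes by the median over libraries were the *Retnla* *H2-Eb1* cluster (104 CPM) and resident-like macrophages (103 CPM), whose ranges overlapped. Of the mesenchymal classes with enough UMIs at 7 dpf, fibroblast-like cells were at 5.97 CPM in control and 10.4 in RA, and committed mesenchymal progenitor-like cells at 3.42 and 4.43 CPM. Fibroblast precursor-like cells differed least of the 6 mesenchymal classes, with a log2 ratio of 0.10.

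Summed over the mesenchymal, endothelial or myeloid lineage, *Apoe*, *Plin2* and *Scd1* differed by less than 2-fold between RA and control on both days. Of these sums *Apoe* in endothelial cells went furthest, with a log2 ratio of -0.71 at 4 dpf. With doublets left out it reached 1.005 there at 7 dpf. Single classes passed 2-fold in either direction. Among them were lymphatic endothelial-like cells for *Apoe* at 7 dpf (log2 ratio -1.98) and *Plin2* at 4 dpf (2.035). *Scd1* did so in *Arg1* macrophage-like cells at 7 dpf (1.20), a class with only 68 *Scd1* UMIs over the 4 libraries. *Apoe*, which macrophages secrete, was highest in resident-like macrophages, at 25795 CPM (16599 to 32549), above *Arg1* macrophage-like cells at 11187 CPM (6913 to 14032). From 4 to 7 dpf its level in mesenchymal cells was higher by log2 ratios of 1.13 in control and 1.43 in RA. It went from 191 to 418 CPM in control and from 180 to 489 CPM in RA. Freed myeloid RNA, at the rate of the myeloid markers, would itself go from 170 to 348 CPM in control and from 106 to 302 CPM in RA. The part of freed RNA in this difference between the days was not tested. In all myeloid cells *Apoe* was at 10238 CPM in control and 6638 in RA at 4 dpf, and at 15602 and 17287 CPM at 7 dpf. At 7 dpf 4 of the 5 myeloid classes were lower in RA and the class mix gave a difference of 2810 CPM while the levels within classes gave -1125 CPM, and the share of resident-like macrophages among myeloid cells was larger in RA (655 of 1572 in RA and 851 of 2656 in control). *Plin2*, the lipid droplet coat, was at 751 and 662 CPM in control and RA myeloid cells at 4 dpf and at 680 and 854 CPM at 7 dpf, and was higher in RA in all 5 myeloid classes at 7 dpf by log2 ratios of 0.07 to 0.38. *Arg1* macrophage-like cells had the highest median over libraries, 1066 CPM (877 to 1081). In mesenchymal cells *Plin2* was at 72.5, 71.0, 59.7 and 70.9 CPM in control 4 dpf, RA 4 dpf, control 7 dpf and RA 7 dpf. *Scd1*, the desaturase, was at 32.6, 26.6, 33.7 and 36.6 CPM in mesenchymal cells in that order and was highest in Schwann-like cells (median 109 CPM, 75.2 to 165), which make myelin lipid. Its osteochondral progenitor-like level at 7 dpf was 101 CPM in control and 92.5 in RA.

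Other lipid genes were counted in 7 lists of 92 genes, which were drawn up with earlier results of these data known. The counts stand beside 1.51% of all genes higher and 1.06% lower by 2-fold in mesenchymal cells at 7 dpf, and nothing particular to a list is read from them. Of the other fatty acid and retinoid binding proteins, 8 of 13 had enough UMIs in mesenchymal cells at 7 dpf: 1 was lower by 2-fold, *Crabp1*, a cytosolic retinoic acid binder (29.4 CPM in control, log2 ratio -1.12), none was higher, and the list's median log2 ratio was -0.30 beside -0.03 for all genes. *Rbp4*, the plasma carrier of retinol, was at 111 and 57.6 CPM. Of the 10 genes of fatty acid transport and activation none passed 2-fold, with *Slc27a3* at 27.7 and 21.8 CPM and *Cav1* at 203 and 169 CPM. Among 16 lipoprotein genes 3 were higher and none lower: *Vldlr*, a lipoprotein receptor (14.4 and 36.8 CPM), *Apod*, a small lipid carrier (149 and 358 CPM), and *Abca1*, a cholesterol exporter, with a list median of 0.33. *Apod* was at 2.48 CPM in control and 71.2 in RA endothelial cells at 4 dpf. None of the 10 lipid droplet genes that passed the filter (of 14) reached 2-fold, and 8 were above 0, among them *Plin3* (37.2 and 46.7 CPM) and *Abhd5* (33.4 and 40.9 CPM).

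The 11 genes of fatty acid synthesis had a mesenchymal median of -0.32 at 7 dpf, with 8 below 0 and none past 2-fold. The desaturase *Fads1* was at 27.6 and 17.5 CPM and the elongase *Elovl6* at 45.6 and 33.6 CPM. At 4 dpf the same list had a median of 0.09. The 13 oxidation genes had a median of 0.03 and none passed 2-fold at 7 dpf, with *Cpt1a*, which admits fatty acids to mitochondria, at 26.7 and 43.6 CPM and *Acadl* at 45.7 and 56.3 CPM. Of the 15 regulators 1 was higher by 2-fold, the coactivator *Ppargc1a*, *Srebf2* had a log2 ratio of -0.58 and *Cebpb* of 0.72, and the median was 0.04.

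The genes whose log2 level was most like that of *Fabp5* over 72 sums (18 classes in 4 libraries, sums of one library sharing its depth and freed RNA) were *Snx3* (Pearson r 0.749), *Hmox2* (0.741), *Fam129b* (0.734), *Cyren* (0.711) and *Nipsnap3b* (0.694). Their mesenchymal log2 ratios of RA to control at 7 dpf were -0.26, -0.20, -0.05, -0.23 and -0.28, against -2.22 for *Fabp5*. This contrast chose *Fabp5*, so nothing is read from the gap. Within the set the closest pairs were *Cd36* with *Pparg* (0.757) and *Apoe* with *Plin2* (0.745), and *Fabp5* was closest to *Cd36* (0.579) and less close to *Fabp4* (0.232).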

How the data were processed

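Single-cell 3' libraries of pooled callus cells, 1 per group, were mapped by the authors to mm10 with Cell Ranger (7.0.1 in the submitters' processing notes), and the deposited matrices hold raw UMI counts per gene and cell for 32285 genes. All columns were assigned to a library (0 unassigned). Cells were kept as in the study's methods, with 4000 to 50000 UMIs, 2000 to 7000 genes and at most 8% mitochondrial UMIs. The looser alternative asked for 1000 UMIs, 500 genes and 15%. Kept libraries held 83405494 to 156567619 UMIs. Doublets were called with Scrublet (scanpy 1.11.5) and kept, except in an alternative, and barcodes shared between libraries were counted and kept.

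Libraries were integrated with Seurat 5.3.0 in R 4.3.3 (canonical correlation, 30 dimensions, 2000 variable genes less the genes described and the lipid lists, 15 principal components, Louvain resolution 0.5). A cluster was named from marker lists by the mean log2 difference in CPM from the rest of the cells (10 CPM added), a lineage score of at least 0.5, a lead of 0.35 over the next lineage, at least 3 markers at 5 CPM, and for a class a score of 0.5 and a lead of 0.3. These limits were set after the clusters were seen, and 1 cluster of 134 cells stayed unnamed. A lineage took the highest score among its own list and the lists of its classes, and the osteoclast name was refused where granule genes led.

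UMIs were summed per class and library and scaled to CPM, that is per 1000000 UMIs. Ratios carry exact conditional binomial intervals, levels exact Poisson intervals and shares exact Clopper-Pearson intervals, all at 95% and for counting error only. Log2 ratios have 1 CPM added to both sides, and a gene counted as higher or lower from 2-fold, given 50 UMIs over both libraries. Classes were compared from 20 cells in both libraries. The parts of the library-wide difference were split into level and mix at the midpoint of both libraries. The ratio step was tested on simulated data. Python 3.11.15, numpy 2.4.6, scipy 1.17.1, pandas 2.3.3 and matplotlib 3.10.9 were used.

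The genes and lists were chosen with earlier results of these data known. The genes named outside the set were the 2 of each list with the largest mesenchymal log2 ratio at 7 dpf and at least 20 CPM, the 5 most correlated with *Fabp5*, and markers. *Abca1* and *Ppargc1a*, and *Apod* in endothelial cells, were named after their values were seen. The authors pooled animals within a library, so no spread between animals can be measured.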

Additional observations from a re-analysis of the deposited data

Results flagged for a closer look

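In 7 cases the 4 and 7 dpf libraries differed between RA and control in opposite directions, and with 1 library per group the difference between the days was not tested. *Fabp4* in mesenchymal cells had log2 ratios of 1.77 at 4 dpf and -0.19 at 7 dpf, a difference of -1.96 between the days. Without integration the log2 ratios were 0.82 and 0.21, so the directions were no longer opposite. At the rate of the endothelial markers without *Pecam1*, freed endothelial RNA would make up 110 and 44.5% of the mesenchymal *Fabp4* level in control and RA 4 dpf. At 7 dpf it would make up 101% in control and 132% in RA. The part of freed RNA in this difference was not tested. *Cd36* in myeloid cells was at -0.52 and 0.21 (a difference of 0.73). *Apoe* was at -0.08 and 0.23 in mesenchymal (difference 0.31), -0.71 and 0.44 in endothelial (1.15) and -0.62 and 0.15 in myeloid cells (0.77). These signs turned under some alternatives: in mesenchymal cells the highest 4 dpf value was 0.12 and the lowest 7 dpf value -0.24, in endothelial cells 0.16 and -0.31, and in myeloid cells the lowest 7 dpf value was -0.16, while the 4 dpf value stayed below 0. Freed myeloid RNA, at the rate of the myeloid markers, would make up 58.9 to 89.1% of mesenchymal and 56.7 to 99.9% of endothelial *Apoe*, and its part in these differences was not tested. *Plin2* in myeloid cells was at -0.18 and 0.33 (difference 0.51), and *Scd1* in mesenchymal cells at -0.29 and 0.12 (0.40). With cells assigned by lineage-marker UMIs the 7 dpf value of *Scd1* was -0.25, and its 4 dpf value stayed below 0.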

How the results depend on the processing

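The 54 ratios of the 9 genes in 3 lineages and 2 days were each recomputed under 12 alternatives. The sign or the 2-fold call changed for some: 22 ratios changed sign under at least 1 alternative, 10 changed their call and 24 did neither. TMM scaling moved the median of all genes by at most 0.067. Mesenchymal *Fabp5* at 7 dpf (log2 ratio -2.22) was at -2.17 with TMM scaling, -2.55 with cells assigned by lineage-marker UMIs, -2.12 without cycling clusters, -2.39 without doublets, -2.32 as a mean of per-cell CPM, -1.77 as a mean over classes, -2.17 without integration and -2.05 with a pseudocount of 10 CPM. Myeloid *Fabp5* at 7 dpf (-1.09) was at -1.12 with TMM, -0.98 with the looser filter, -1.13 per cell and -1.13 over classes. Endothelial *Fabp5* at 7 dpf (-0.16) was at -0.30 by marker UMIs, -0.10 without doublets, -0.25 with the looser filter and -0.40 over classes. At 4 dpf endothelial *Fabp5* was at -0.64 by marker UMIs. Mesenchymal *Fabp5* at 4 dpf (-0.03) was at -0.10 with TMM, 0.71 by marker UMIs, -0.14 without cycling clusters, -0.12 with the looser filter and 0.26 over classes. The mesenchymal part of the 7 dpf difference (28.5%) was 7.79% by marker UMIs, which called 797 control and 1227 RA cells mesenchymal at 7 dpf (792 and 1216 of them among the 3233 and 4069 of the clustering), 23.9% without cycling clusters, 26.1% with the looser filter and 27.1% with lipid genes kept in the clustering. Unthinned shares of mesenchymal cells with *Fabp5* were 57.1, 57.9, 67.8 and 36.8% in control 4 dpf, RA 4 dpf, control 7 dpf and RA 7 dpf.

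The number of genes of the set past 2-fold was 1 in endothelial cells at 4 dpf by marker UMIs and 1 at 7 dpf without doublets. In mesenchymal cells at 4 dpf it was 1 without cycling clusters, with the looser filter, without integration and with a pseudocount of 10 CPM, and at 7 dpf 1 over classes. By marker UMIs at 4 dpf *Pparg* was no longer among them and *Cd36*, lower, was. Over classes at 4 dpf *Lpl*, higher, was added (log2 ratio 1.07). In myeloid cells the number at 4 dpf was 0 over classes and with a pseudocount of 10 CPM, and at 7 dpf 2 per cell. With the looser filter at 7 dpf *Lpl*, higher, passed 2-fold in myeloid cells and *Fabp5* (-0.98) did not. The cause of these changes was not tested. No paired analysis was possible because each group is 1 library and the labels carry no replicate numbers, and leaving out a library would empty its group. With 1 pool per group, treatment, pool and library cannot be told apart.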
